A study of Oncorhynchus mykiss with 8 samples.

Results

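The IGF-I receptor and MyoD2 were followed through 2 probes, of 43603 on a salmonid microarray, in white muscle of large and small rainbow trout. Both were chosen by their Dec. ratios: the study's own analysis of these arrays had placed them among the genes up-regulated in small Dec. fish. The first, A_05_P249834, carries the study's name insulin-like growth factor i receptor. The second, A_05_P249699, carries the study's name myoblast determination protein 2, whereas the platform annotation gives it the symbol myod1c and gives myod2 to another probe. It is called the MyoD2 probe below as the study names it, and which MyoD gene it measures is not settled here. The ratios of the Dec. lot, and the Dec. minus Sept. differences, rest on the choice of the probes and are given as a description without a test. The Sept. lot had no part in it and was tested. The difference between the dye orientations of a pool pair was tested too, but in the Dec. lot it is not free of the choice. The study's listing also weighed the spread over the Dec. arrays, dye swaps included.

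The fish were immature juveniles of the Lyndon strain from a Dec. and a Sept. lot, named for the month of spawning, each reared in a common environment on a commercial ration and sampled when the lots were of similar age. Each lot came from a male of its own and 5 females, and a pool held mRNA of 5 fish of 1 size class, 1 from each female and among the largest or smallest of its family. A pool of large fish was hybridised together with a pool of small fish, once with the large fish in Alexa Fluor 647 and once with the large fish in Alexa Fluor 555, so that 2 pool pairs per lot gave 4 arrays per lot and 8 in all. Since a swap repeats the same RNA, its arrays were averaged into 1 replicate, n = 2 pool pairs per lot. The pools average over fish, so the values say nothing of single fish, and season, sire and dams of a lot cannot be told apart.

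The IGF-I receptor is a membrane tyrosine kinase that binds insulin-like growth factors, which growth hormone induces in liver and in muscle itself. In fish muscle its signal favours protein synthesis and the proliferation of myoblasts, the precursor cells of muscle fibres. MyoD proteins are basic helix-loop-helix transcription factors that commit cells to the muscle lineage and act with Myf5, myogenin and MRF4. Salmonids keep several MyoD genes, and trout continue to recruit new white muscle fibres as juveniles.

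Values are log2(large/small): transcripts more abundant in large fish are above 0, and -1 stands for a 2-fold higher level in small fish. The direction is a likely one, since the labels do not name the numerator of the ratio: with every deposited column negated, 1472 of 1472 muscle listings of the study, without the 2 probes, had the listed sign. The listings came from these same arrays, so they show the sign the study used and do not check the orientation of each array. The arrays had values for 41909 to 43249 probes, medians between -0.027 and 0.016 and standard deviations between 0.294 and 0.602, the widest being the Dec. replicate 1 array with the large fish in Alexa Fluor 555. Across the 38488 probes on all 8 arrays, the swapped arrays of a pool pair correlated at -0.28 in Dec. replicate 1, 0.50 in Dec. replicate 2, -0.19 in Sept. replicate 1 and -0.12 in Sept. replicate 2. In 3 of 4 pool pairs the same RNA thus gave ratios that ran against each other between the dye orientations, and each value below is given with its orientation for that reason.

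The IGF-I receptor probe had a mean log2 ratio of -0.63 in the Dec. lot, 1.55-fold toward small fish, and of 0.01 in the Sept. lot. In Dec. replicate 1 it was 0.03 with the large fish in Alexa Fluor 647 and -1.37 with the large fish in Alexa Fluor 555. In Dec. replicate 2 it was -0.51 with the large fish in Alexa Fluor 647 and -0.67 with the large fish in Alexa Fluor 555. Thus 3 of the 4 Dec. arrays lay on the side of small fish, as at least 3 did for 36.4% of 39770 probes, and 1 lay at 0.03. The Sept. values of this receptor were 0.15 (Alexa Fluor 647) and 0.18 (Alexa Fluor 555) in replicate 1. In Sept. replicate 2 they were -0.48 (Alexa Fluor 647) and 0.20 (Alexa Fluor 555). In the Sept. lot 3 arrays therefore lay close together on the side of large fish and 1 lay apart on the side of small fish.

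Averaged over a swap, the IGF-I receptor probe gave -0.67 and -0.59 in the Dec. pool pairs, against 0.17 and -0.14 in the Sept. pool pairs. The Dec. pool pairs differed by 0.08 (SD 0.06, n = 2), although the swapped arrays behind the first of them lay 1.40 apart, a swap difference that 8.40% of all probes exceeded in that pool pair. The close Dec. means thus rest on arrays that were far apart. The Dec. mean was -0.63 ± 0.10 (SE of limma's fit over both lots, n = 2 pool pairs), and 1.53% of 39770 probes had a lower Dec. mean. It was -0.24 over the arrays with the large fish in Alexa Fluor 647 alone and -1.02 over those with the large fish in Alexa Fluor 555 alone. It was -0.28 without the array that read -1.37 and -0.98 without the array that read 0.03.

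In the Sept. lot the receptor transcript did not differ beyond the spread of the pool pairs. The Sept. mean was 0.01 ± 0.10 (SE, n = 2 pool pairs; SD 0.22), with a 95% confidence interval from -0.27 to 0.30, which runs from 1.21-fold toward small fish to 1.23-fold toward large fish (limma adjusted p = 0.9996). This SE and interval rest on 1 spread shared with the Dec. lot, whose pool pairs lay closer together (SD 0.06). The Dec. ratios chose the probe, so the interval is not free of that choice. The sign of the Sept. mean turned to -0.14 without Sept replicate 1. It was 0.18 without the Sept. array that lay apart. No probe of the whole table passed the adjusted test in this lot: 0% of 41524 probes did, with 1482 at an unadjusted limma p up to 0.05. At the threshold of the methods, an unadjusted p up to 0.05 and at least 1.2-fold, 1.16% of probes were higher in large and 1.63% higher in small Sept. fish, against 6.54% and 7.59% of 39770 probes in the Dec. lot, and neither the receptor nor the MyoD2 probe passed it in the Sept. lot.

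**Figure D1:**
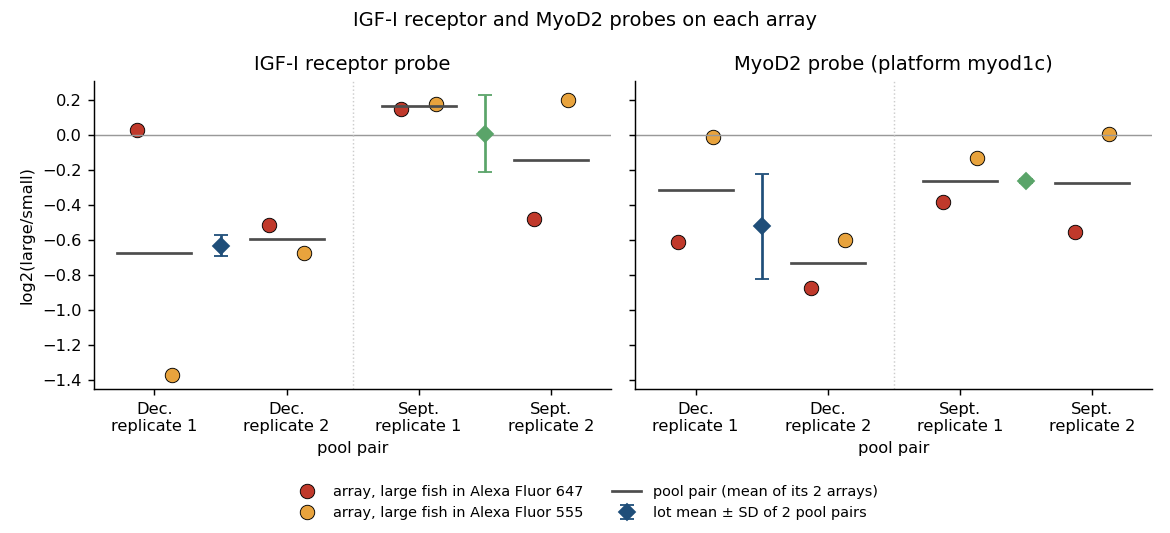
log2(large/small) of the IGF-I receptor probe (left) and the MyoD2 probe (right) on each of the 8 arrays, by pool pair, with red points for large fish in Alexa Fluor 647, orange points for large fish in Alexa Fluor 555, bars for pool pairs and diamonds for the lot mean ± SD of 2 pool pairs. The receptor spans -1.37 to 0.03 in the Dec. lot and -0.48 to 0.20 in the Sept. lot, and the MyoD2 probe reads lower with the large fish in Alexa Fluor 647 in each of the 4 pool pairs.

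The MyoD2 probe lay on the side of small fish in both lots, at a mean log2 ratio of -0.52 in the Dec. lot (1.44-fold toward small fish) and -0.26 in the Sept. lot (1.2-fold toward small fish). In Dec. replicate 1 it was -0.61 with the large fish in Alexa Fluor 647 and -0.01 with the large fish in Alexa Fluor 555. In Dec. replicate 2 it was -0.87 with the large fish in Alexa Fluor 647 and -0.60 with the large fish in Alexa Fluor 555. All 4 Dec. arrays were below 0, a pattern that 7.56% of the 39770 probes shared, and 1 of them lay at the zero line. The Sept. values of this MyoD probe were -0.38 (Alexa Fluor 647) and -0.13 (Alexa Fluor 555) in replicate 1. In Sept. replicate 2 they were -0.55 (Alexa Fluor 647) and 0.01 (Alexa Fluor 555). Below 0 were 3 of the 4 Sept. arrays, and 30.0% of 41524 probes had at least 3 Sept. arrays below 0.

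The pool pairs of the MyoD2 probe were -0.31 and -0.73 in the Dec. lot, against -0.26 and -0.27 in the Sept. lot. All 4 pool pairs lay on the side of small fish, as they did for 10.1% of the 38488 probes on all 8 arrays. The Dec. mean was -0.52 ± 0.12 (SE, n = 2 pool pairs; SD 0.30), and 3.54% of probes had a lower Dec. mean. The Sept. mean was -0.26 ± 0.12 (SE, n = 2; SD 0.01), with a 95% confidence interval from -0.60 to 0.07, that is from 1.52-fold toward small fish to 1.05-fold toward large fish. Here too the spread is shared with the Dec. lot, whose pool pairs lay farther apart. The Sept. mean did not pass the adjusted test (limma adjusted p = 0.9996), and 4.07% of probes had a lower Sept. mean. The Sept. mean of this probe was -0.47 over the arrays with the large fish in Alexa Fluor 647 and -0.06 over those with the large fish in Alexa Fluor 555. Without the Sept. replicate 2 array with the large fish in Alexa Fluor 647 it was -0.12. With the deposited sign kept on the arrays with the large fish in Alexa Fluor 647, a reading under which 1041 of the 1472 listings (70.7%) had the listed sign, the mean of this probe turned to 0.22 in the Dec. and 0.20 in the Sept. lot. That Dec. value is opposite to the study's own listing of this probe, and with every column negated all 1472 listings had the listed sign. Since the listings were made from these same arrays, they cannot decide between the readings for a single array. In bulk muscle, fewer cells that hold a transcript and less transcript per cell cannot be told apart for either gene.

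The MyoD2 probe, unlike the receptor, kept 1 order of the dye orientations. Its ratio with the large fish in Alexa Fluor 647 was below that with the large fish in Alexa Fluor 555 in 4 of 4 pool pairs, by 0.60 and 0.27 in the Dec. lot and by 0.25 and 0.56 in the Sept. lot. It averaged -0.60 over the 4 arrays with the large fish in Alexa Fluor 647 and -0.18 over the 4 with the large fish in Alexa Fluor 555. The dye shift, by which an array with the large fish in Alexa Fluor 647 departs from the mean of its pool pair, was -0.21 ± 0.06 (SE, n = 4 pool pairs). Its 95% confidence interval, not adjusted for the number of probes, ran from -0.37 to -0.05. The Dec. pool pairs among the 4 are not free of the choice of the probe, so neither is this interval. The shift did not pass the adjusted test over 38488 probes (limma adjusted p = 0.406). No probe passed it (0%, with 3625 at an unadjusted p under 0.05), and 9.40% of probes were lower with the large fish in Alexa Fluor 647 in all 4 pool pairs. An order kept in all 4 pool pairs, in either direction, was seen for 21.3% of probes, and 9.38% had a lower dye shift than the MyoD2 probe.

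For the IGF-I receptor the order of the orientations turned between lots. Its ratio with the large fish in Alexa Fluor 647 minus that with the large fish in Alexa Fluor 555 was 1.40 and 0.16 in the Dec. pool pairs, against -0.03 and -0.68 in the Sept. pool pairs. The dye shift averaged 0.11 ± 0.17 (SE, n = 4 pool pairs; limma adjusted p = 0.821), with a 95% confidence interval from -0.32 to 0.53. Its sign turned to -0.09 without Dec replicate 1. For this probe too, the Dec. pool pairs in the dye shift are not free of the choice.

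**Figure D2:**
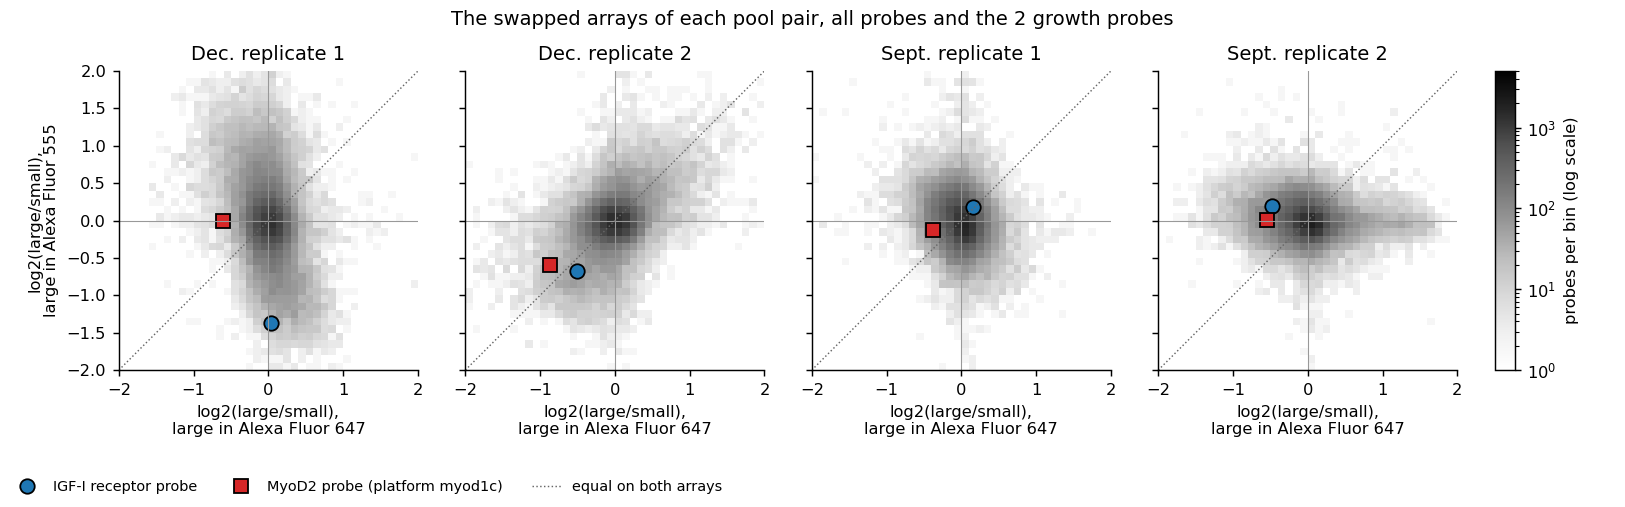
log2(large/small) with the large fish in Alexa Fluor 647 (horizontal axis) against that with the large fish in Alexa Fluor 555 (vertical axis) in each of the 4 pool pairs, with the number of probes per bin in grey on a log scale and the axes limited to -2 to 2. Points on the dotted line read alike on both arrays: the grey cloud follows it in Dec. replicate 2 (correlation 0.50) and runs against it in the other 3 pool pairs, and the MyoD2 probe lies above the line in all 4.

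Between the lots, the receptor's pool pairs did not overlap and those of the MyoD2 probe did not either, the Dec. pool pairs being the lower ones for both. Among all probes, 21.1% had both Dec. pool pairs below both Sept. pool pairs, and since the Dec. values chose the probes nothing is read from it. The Dec. minus Sept. difference was -0.64 ± 0.15 for the receptor and -0.26 ± 0.18 for the MyoD2 probe (SE). For the receptor it was -0.08 over the arrays with the large fish in Alexa Fluor 647 and -1.21 over those with the large fish in Alexa Fluor 555. For the MyoD2 probe it was -0.27 and -0.24 over the same sets of arrays. The lot difference of the receptor was therefore carried by 1 dye orientation, while that of the MyoD2 probe moved with the pool pairs, to -0.47 without Dec replicate 1 and to -0.05 without Dec replicate 2.

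**Figure D3:**
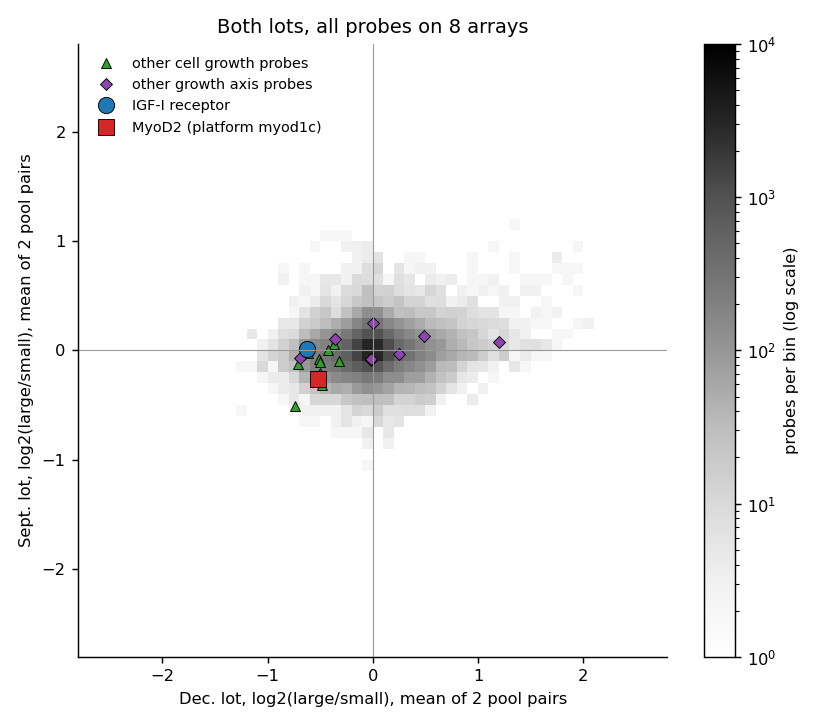
Mean log2(large/small) of 2 pool pairs in the Dec. lot (horizontal axis) against the Sept. lot (vertical axis) for all probes on 8 arrays, with the number of probes per bin in grey on a log scale and the growth probes marked. The receptor lies at -0.63 and 0.01, the MyoD2 probe at -0.52 and -0.26, and growth factor receptor-bound protein 14 farthest to the right of the marked probes at 1.2 and 0.08.

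Growth axis probes lay on both sides of 0 in either lot. By name or symbol 9 of the 1494 named probes were of growth hormone and IGF signalling, the receptor included. The study had listed 4 of the 9 for muscle on these arrays. Of the 43603 probes, 1308 had a name from the study's lists of genes that differed by size. Further growth axis probes may lie among the 42109 without a name. A probe of growth hormone, IGF-I or IGF-II was not among the named probes used here. The median of the 9 was -0.02 in the Dec. lot (3 toward large and 6 toward small fish) and 0.01 in the Sept. lot (5 toward large and 4 toward small fish), beside a median of -0.01 over all probes in either lot. Without the receptor it was -0.01 in the Dec. lot (3 toward large and 5 toward small fish) and 0.03 in the Sept. lot (4 and 4). Of all probes, 53.4% lay toward small fish in the Dec. lot and 52.0% in the Sept. lot. None of the 9 passed the adjusted test in the Sept. lot, where 0% of all probes passed it.

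Upstream of the receptor, the probe of growth hormone receptor 1 (ghr1), through which growth hormone acts on the cell, was -0.37 (Alexa Fluor 647) and 0.63 (Alexa Fluor 555) in Dec. replicate 1 and 0.86 and 0.84 in Dec. replicate 2. Its mean was 0.49 ± 0.19 in the Dec. lot and 0.13 ± 0.19 in the Sept. lot (limma adjusted p = 0.9996 in the Sept. lot). Its pool pairs were 0.13 and 0.85 in the Dec. lot and 0.21 and 0.05 in the Sept. lot. On 1 Dec. array, that of replicate 1 with the large fish in Alexa Fluor 647, ghr1 lay on the side of small fish. It was also below 0, at -0.05, on the Sept. replicate 2 array with the large fish in Alexa Fluor 555.

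The binding proteins, which carry IGFs and hold them from the receptor, had lot means between -0.09 and 0.25. IGF binding protein 1 was -0.02 ± 0.15 in the Dec. lot and -0.09 ± 0.15 in the Sept. lot on the probe A_05_P249019, and 0.25 ± 0.13 and -0.03 ± 0.13 in the same lots on the probe A_05_P489857. These probes of 1 name had the same sign in the Sept. lot and opposite signs in the Dec. lot. The igfbp6 probe was 0.00 ± 0.24 in the Dec. lot and 0.25 ± 0.24 in the Sept. lot, the highest Sept. mean of the 9, and 1 of its Sept. arrays read 1.37 with the others between -0.41 and 0.06. The igfbprp1 probe, of an IGF binding protein related gene, was -0.02 ± 0.29 in the Dec. lot and -0.08 ± 0.29 in the Sept. lot. Its pool pairs were opposed in both lots, at 0.50 and -0.55 in the Dec. lot and 0.16 and -0.32 in the Sept. lot. Without the igfbp6 array at 1.37, the Sept. mean of igfbp6 turned to -0.08.

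Downstream of the receptor lay the highest and the lowest Dec. mean of the 9. Growth factor receptor-bound protein 14, an adaptor that binds the activated insulin receptor and dampens its signal, was 0.21 (Alexa Fluor 647) and 1.49 (Alexa Fluor 555) in Dec. replicate 1 and 1.22 and 1.88 in Dec. replicate 2. All 4 Dec. arrays were on the side of large fish, as were those of 7.29% of probes. The Dec. mean was 1.2 ± 0.19, 2.30-fold, against 0.08 ± 0.19 in the Sept. lot. The study had listed this probe as higher in large Dec. fish, so its Dec. direction is not independent evidence. A probe named phosphatase and tensin-like protein, a lipid phosphatase that opposes the signal of the receptor through phosphoinositides, had the lowest Dec. mean at -0.69 ± 0.15 and a second probe of that name was -0.36 ± 0.11. Both had been listed as higher in small Dec. fish. Their Sept. means were -0.07 ± 0.15 and 0.10 ± 0.11, of opposite sign.

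**Figure D4:**
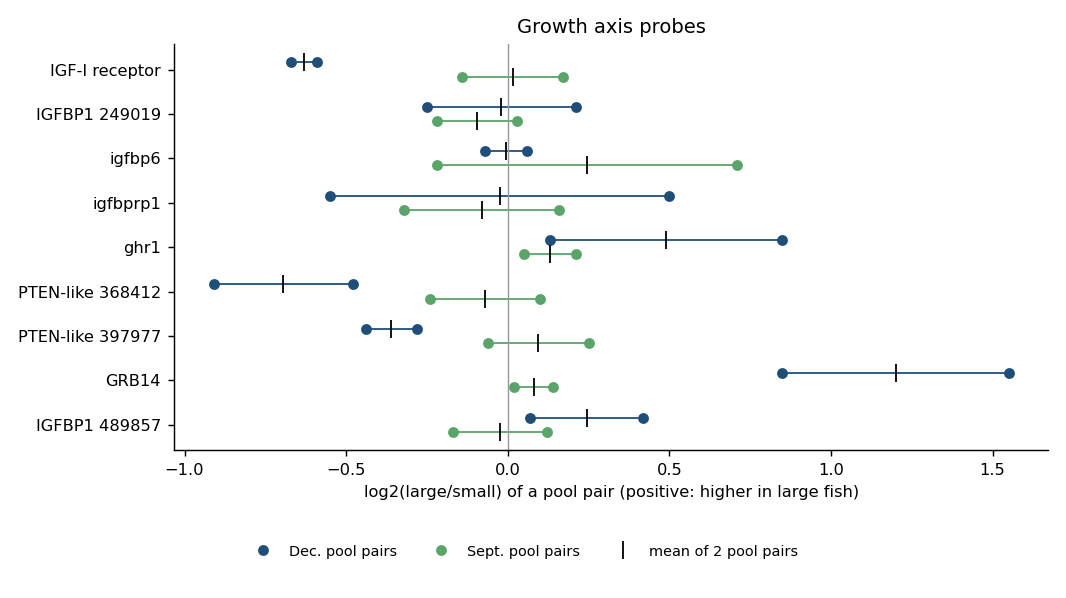
log2(large/small) of the 9 growth axis probes, with points for pool pairs (blue for the Dec. lot, green for the Sept. lot), a line between the 2 pool pairs of a lot and a tick at their mean; digits after a name are the last of the probe ID. The receptor's Dec. pool pairs are at -0.67 and -0.59, and growth factor receptor-bound protein 14 reaches 1.55.

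The other myogenic regulators lay on both sides of 0 in the Dec. lot, 4 toward large and 3 toward small fish, with notch 1 at -0.51 beside the MyoD2 probe at -0.52. The list held 8 probes, the MyoD2 probe included, of which 3 had been listed for muscle. Its median was 0.07 in the Dec. lot (4 toward large and 4 toward small fish) and -0.17 in the Sept. lot (1 toward large and 7 toward small fish), beside 53.4% of all probes toward small fish in the Dec. lot and 52.0% in the Sept. lot. Without the MyoD2 probe the median was 0.18 in the Dec. lot and -0.08 in the Sept. lot, and without the 3 listed probes it was 0.18 and -0.04. None of the 8 passed the adjusted test in the Sept. lot.

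The probe annotated as myod2 was -0.24 (Alexa Fluor 647) and 1.04 (Alexa Fluor 555) in Dec. replicate 1 and 0.18 and -0.28 in Dec. replicate 2. Its mean was 0.18 ± 0.15 in the Dec. lot and -0.29 ± 0.15 in the Sept. lot. The probe annotated as myod1 was -0.08 and 1.35 in Dec. replicate 1 and 0.13 and -0.10 in Dec. replicate 2. The highest Dec. value of both came from the same array, and without it the Dec. mean turned to -0.14 for myod2 and to -0.03 for myod1. Over all arrays the myod1 probe had the highest Dec. mean of the list at 0.33 ± 0.19 and the lowest Sept. mean of the 8 at -0.46 ± 0.19. All 3 MyoD probes thus had Sept. means below 0, while the Dec. side of the probes annotated as myod1 and myod2 rested on 1 array. Whether a probe of 1 MyoD gene also binds the transcripts of another was not tested.

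Among the partners of MyoD, Myf5, which acts beside it in committing cells to muscle, was -0.09 ± 0.12 in the Dec. lot and -0.04 ± 0.12 in the Sept. lot. The mrf4 probe, of a factor of differentiating fibres, was added after its values were seen and was -0.01 ± 0.24 in the Dec. lot and -0.54 ± 0.24 in the Sept. lot. Its Sept. arrays ran from -1.87 to 0.16. Pax7, which marks the resident precursor cells of muscle, was the only probe of the 8 on the side of large fish in the Sept. lot, at 0.28 ± 0.14, against -0.03 ± 0.14 in the Dec. lot, and 1 array at 1.18 stood above its other Sept. arrays, without which the Sept. mean was -0.06. The gdf-8 probe, of myostatin, an inhibitor of muscle growth, was 0.19 ± 0.10 in the Dec. lot and 0.00 ± 0.10 in the Sept. lot. A myogenin probe was not among the named probes used here. Six2, a homeobox factor listed as higher in small Sept. fish, was 0.30 ± 0.09 in the Dec. lot and -0.35 ± 0.09 in the Sept. lot. Its Dec. mean was 0.0 without the Dec. replicate 1 array with the large fish in Alexa Fluor 555, which read 0.96. Notch 1, a receptor that holds precursor cells undifferentiated, was -0.51 ± 0.08 and -0.08 ± 0.08 in the same lots. The Sept. arrays of notch 1 ran from -1.49 to 1.3, and its Sept. mean from -0.78 to 0.62 with 1 array left out. Its SE rests on the means of pool pairs and leaves out this spread between swapped arrays.

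**Figure D5:**
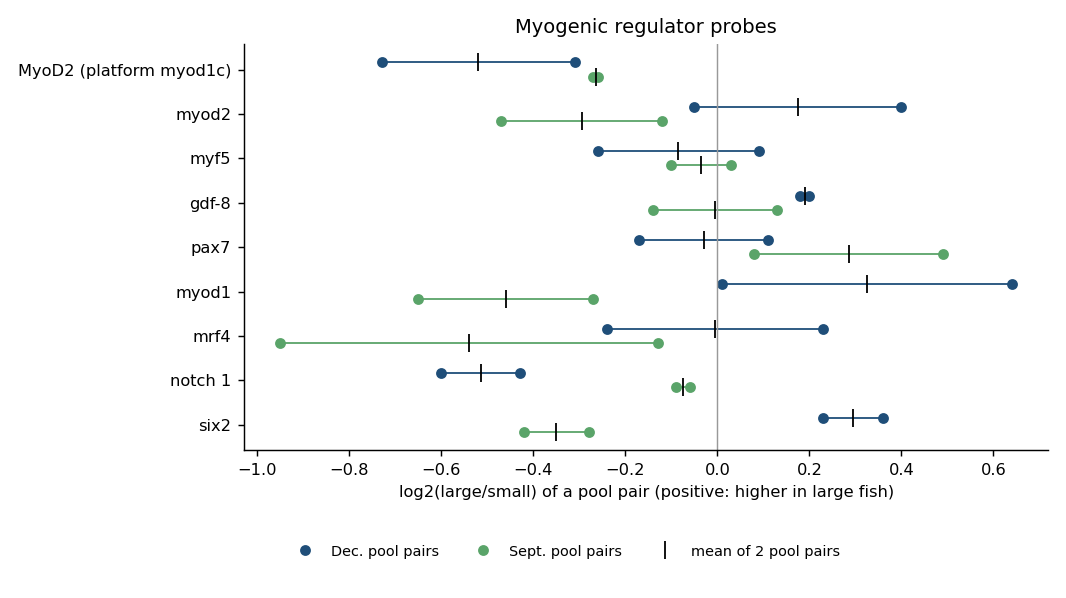
log2(large/small) of the 8 myogenic regulator probes and mrf4, with points for pool pairs (blue for the Dec. lot, green for the Sept. lot), a line between the 2 pool pairs of a lot and a tick at their mean. The MyoD2 probe has all 4 pool pairs between -0.73 and -0.26, while the probes annotated as myod1 and myod2 have Sept. means below 0 and Dec. means above 0 that turn below 0 without 1 array.

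The annotation of the study grouped the receptor with 10 other probes under cell growth among the genes higher in small Dec. fish, so the Dec. side of all 11 was set by the choice. Their Dec. means ran from -0.74 to -0.32. In the Sept. lot, which set the side of only 1 of them, the median of the 11 was -0.10 and none passed the adjusted test (0% of all probes). Toward large fish lay 3 and toward small fish 8, beside 52.0% of all probes toward small Sept. fish. Der1-like domain member 2, a protein of the endoplasmic reticulum membrane, was the exception that the study had listed in both lots, and its Sept. mean of -0.51 ± 0.24 was the lowest. Protein kinase C theta, a kinase abundant in skeletal muscle, followed at -0.32 ± 0.11, with pool pairs at -0.15 and -0.49. The catalytic subunit of protein phosphatase 2A was -0.21 ± 0.10, the b-cell translocation gene, which restrains proliferation, was -0.12 ± 0.22, and b-cell lymphoma 6 protein, a transcriptional repressor, was -0.11 ± 0.19. The remaining 6, with the receptor among them, lay between -0.10 and 0.06. The 13 cell cycle probes, which include drivers and inhibitors of the cycle, had a median of -0.17 in the Dec. lot (5 toward large and 8 toward small fish), and of 0.04 without the 6 that the study had listed (4 and 3). In the Sept. lot their median was -0.07 (1 toward large and 11 toward small fish, 12 measured), and -0.05 without the listed ones. Their Sept. means ran from -0.35 to 0.16, and the Sept. median over all probes was -0.01. Of all probes, 53.4% lay toward small fish in the Dec. lot and 52.0% in the Sept. lot. The ends of the list in the Dec. lot were a probe of growth arrest and DNA damage protein beta at 1.51 and cell division cycle and apoptosis regulator protein 1 at -0.74. The study had listed both for that lot, so their Dec. values share the choice. Another probe of the list, named for gadd45 beta and not listed, was 0.09 ± 0.15 in the Dec. lot. Cyclin D1, which drives entry into the cycle, was -0.37 ± 0.09 in the Dec. lot, for which it had been listed, and -0.05 ± 0.09 in the Sept. lot.

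Likeness to a probe was measured by the root mean square difference of log2(large/small) over the 8 arrays, which share their mRNA pools in pairs. An unnamed probe, A_05_P266554, lay nearest to the receptor at 0.141, followed among named probes by ccaat enhancer-binding protein zeta at 0.16 and OX-2 membrane glycoprotein precursor at 0.163. Cell division cycle and apoptosis regulator protein 1 (0.172), solute carrier family 22 member 17 (0.190) and ribosomal protein l19 (0.192) were next. In all, 209 of 38487 other probes (0.543%) lay within 0.25 of the receptor. The 6 named here also had their lowest value on the Dec. replicate 1 array on which the receptor read -1.37, between -0.93 and -1.72. Likeness over these same arrays chose them, so the shared low value follows from the choice and nothing is read from it.

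Nearest to the MyoD2 probe were interferon-induced guanylate-binding protein 1 at 0.159, ATP-binding cassette sub-family f member 3-like at 0.176 and fk506-binding protein 1a at 0.191, with protein FAM8A1 and arrestin domain containing 2 at 0.197 each. Within 0.25 of it lay 41 probes (0.107%). The 10 named neighbours of both probes had all been listed as higher in small Dec. fish, so they share the choice. Among the myogenic factors, myf5 lay nearest to it at 0.487, with 20% of probes nearer, the probe annotated as myod2 at 0.564, with 52.9% nearer, mrf4 at 0.795 with 88.1% nearer and the probe annotated as myod1 at 0.804 with 88.7% nearer. The receptor lay at 0.593 from the MyoD2 probe, with 62.9% of probes nearer.

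Probes of other cell types had medians away from 0, and none of them passed the adjusted test for Sept. fish. In the Dec. lot, the lot in which both growth probes lay toward small fish, the 9 slow (red) muscle probes with a value had a median of -1.43 and ran from -2.23 to 0.36, with 1 toward large and 8 toward small fish. In the Sept. lot, 11 slow muscle probes had a median of 0.30 and ran from -0.25 to 0.75, with 8 toward large and 3 toward small fish. Over all probes, 53.4% lay toward small fish in the Dec. lot and 52.0% in the Sept. lot. Plasma protein, red blood cell, connective tissue and skin probes lay mostly toward large fish, over 4 to 16 probes a list. Their medians were 1.51, 1.64, 0.84 and 1.17 in the Dec. lot and 0.93, 0.68, 0.31 and 0.68 in the Sept. lot. In that order, 8, 10, 8 and 4 lay toward large and 0, 2, 2 and 0 toward small Dec. fish. In the Sept. lot 15, 11, 7 and 4 lay toward large and 1, 1, 2 and 0 toward small fish. In the Dec. lot 8 of 16 plasma protein probes were measured, and their median was 0.31 in Dec. replicate 1 and 2.82 in Dec. replicate 2. For the 12 red blood cell probes it was 0.05 in Dec. replicate 1 and 3.16 in Dec. replicate 2, so that both Dec. medians came mostly from replicate 2. The 15 fast muscle probes had a median of -0.20 in the Dec. lot (from -2.06 to 1.29) and -0.13 in the Sept. lot (from -2.75 to 0.91). In either lot 5 lay toward large and 10 toward small fish. Most of these probes had been listed by the study on these arrays. The muscle had been taken away from the red muscle, with the skin removed. The part of all these transcripts in the values of the receptor and the MyoD2 probe was not tested, and ratios within an array give no level by which the labelled tissue could be checked.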

How the data were processed

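White muscle mRNA pools of large and small fish were compared on 8 arrays. The authors scanned them with a GenePix scanner, removed poor spots by hand and points of low signal in GeneSpring GX, and applied lowess normalisation. The deposited columns hold log2 ratios, 1 per array, with 0 columns of other series. Neither intensities nor signal over background were analysed here, so precision in the main fit was judged only from the spread between pool pairs. All columns were negated. Whether the spread of arrays was scaled stays unknown. From 43663 rows, 60 control features were left out. Names came from the study's lists and the platform annotation (1494 probes).

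Swapped arrays were averaged, and limma 3.58.1 in R 4.3.3 (lmFit and eBayes) was fitted with a mean for each lot and 1 spread shared by both, over probes measured on all 4 arrays of a lot, with Benjamini-Hochberg adjustment and a threshold of 0.05. P-values measure the spread between pool pairs. The dye shift, the difference of swapped arrays divided by 2, was fitted likewise over 4 pool pairs. The code was tested on simulated data.

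Named are both probes, listed growth axis and myogenic probes at the ends or median of their list or of fixed families, the cell growth companions, and for each probe the 5 nearest named probes and the nearest of any kind. Cyclin D1, the ends of the cell cycle list, myf5, mrf4, six2 and the second phosphatase and tensin-like probe fall outside this rule and were named after their values were seen. The probes and lists were chosen with earlier results of these data known. Alternatives left out pool pairs or arrays, kept 1 dye, centred or scaled arrays, kept arrays apart, fitted lots alone, used the methods' t-test, or added the replicate number as a block. Equally numbered pool pairs of the lots hold different fish.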

Additional observations from a re-analysis of the deposited data

Results flagged for a closer look

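Among 38 probes and 76 groups of 4 arrays looked at, 6 arrays lay farther from the other 3 of their lot than the 95% limit of Dixon's test allows. For independent values of equal spread, chance alone gives about 1 in 20 groups. The arrays of a lot are swaps of the same pools and differ in spread, so that share is only a rough guide here. Some of these probes were picked for likeness on the same arrays.

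The IGF-I receptor probe read -0.48 on the Sept. replicate 2 array with the large fish in Alexa Fluor 647, against 0.15 to 0.20 on the other Sept. arrays. OX-2 membrane glycoprotein precursor, one of the probes nearest to it, stood apart on the same array at -0.46, against 0.19 to 0.21. Growth factor receptor-bound protein 14 read 0.25 on the Sept. replicate 1 array with the large fish in Alexa Fluor 647, against 0.02 to 0.03.

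The probe annotated as myod1 read 1.35 on the Dec. replicate 1 array with the large fish in Alexa Fluor 555, against -0.10 to 0.13 on the other Dec. arrays. On the Sept. replicate 2 array with the large fish in Alexa Fluor 555, myf5 read 0.15, against -0.11 to -0.09, and the b-cell translocation gene read 0.06, against -0.19 to -0.15.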

How the results depend on the processing

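Each pool pair and each array was left out in turn (arrays, and the kept sign below, were chosen after seeing the data). The Dec. value then ran from -0.98 to -0.28 for the IGF-I receptor and from -0.73 to -0.31 for the MyoD2 probe, the Sept. value from -0.16 to 0.18 and from -0.40 to -0.12, and the Dec. minus Sept. value from -0.99 to -0.29 and from -0.47 to -0.05. A lot left with 1 pool pair was assumed to vary like the other lot. The dye shift ran from -0.09 to 0.26 for the receptor and from -0.24 to -0.18 for the MyoD2 probe. With the large fish in Alexa Fluor 647 only, the receptor was -0.24 in the Dec. lot, -0.16 in the Sept. lot and -0.08 for Dec. minus Sept., and with Alexa Fluor 555 only it was -1.02 in the Dec. lot and -1.21 for Dec. minus Sept. With arrays scaled to 1 spread its Dec. value was -0.51. With the deposited sign kept on the arrays with the large fish in Alexa Fluor 647, tried because swapped arrays ran against each other, the receptor's Dec. value was -0.39, while the MyoD2 probe turned to 0.22 in the Dec. lot, 0.20 in the Sept. lot and 0.01 for Dec. minus Sept. With each array left out, the Dec. mean ran from -0.14 to 0.49 for the probe annotated as myod2 and from -0.03 to 0.68 for that annotated as myod1, both lowest without the Dec. replicate 1 array with the large fish in Alexa Fluor 555. The cause of these shifts was not tested.

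The Sept. contrast passed the adjusted test under none of 22 alternatives for either probe (adjusted p, from limma or the methods' test, from 0.779 to 1.0 for the receptor and from 0.634 to 1.0 for the MyoD2 probe), and the MyoD2 probe reached the methods' threshold of an unadjusted p up to 0.05 and 1.2-fold in 6 of them. Those 6 are not all separate results: without Dec replicate 1, without Dec replicate 2 and with each lot fitted alone, the Sept. fit is the same. The spread of that fit comes from the Sept. pool pairs only. The others were the arrays with the large fish in Alexa Fluor 647 alone (-0.47) and the arrays kept apart. The last was the fit without the Dec. replicate 1 array with the large fish in Alexa Fluor 555. With the replicate block the values were -0.63 and 0.01 for the receptor and -0.52 and -0.26 for the MyoD2 probe in the Dec. and the Sept. lot, and no call changed. The replicate numbers do not pair the lots, whose equally numbered pool pairs correlated at 0.07 in their deviations.

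Over all probes, 0 passed in either lot, and an unadjusted limma p up to 0.05 with 1.2-fold gave 2599 toward large and 3020 toward small fish in the Dec. lot, and 480 and 677 in the Sept. lot. The Dec. count was 0 to 355 with a pool pair or array left out, the 355 being without Dec replicate 1, and 8 with arrays kept apart and the pool pair as a random block. The Sept. count was 0 in each of these. List medians lie near 0 and moved as follows. The growth axis median was -0.07 to 0.06 (Dec.) and 0.03 to 0.05 (Sept.) with a pool pair left out, and -0.03 (Sept.) without probes the study listed for muscle. The myogenic median was 0.01 to 0.05 (Dec.) and -0.18 to -0.13 (Sept.) with a pool pair left out, 0.18 and -0.04 without listed probes, and -0.01 and -0.26 with mrf4. The cell cycle median ran from -0.33 to -0.09 (Dec.) and from -0.15 to -0.02 (Sept.), and the cell growth median from -0.60 to -0.43 and from -0.15 to -0.06.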
